A study of Drosophila melanogaster with 76 samples.

Results

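The subject is a set of 619 genomic regions that were called in wild-type Drosophila melanogaster S2 cells with each of 4 antibodies: anti-Zld, anti-Grh, anti-Twi and anti-HA. The regions were selected on the 4 wild-type chromatin immunoprecipitation (ChIP-seq) peak lists: a region of the anti-Zld list was kept if at least 1 bp of it overlapped a region in each of the remaining lists. They make up 10.4% (95% interval 9.65 to 11.2) of the 5945 anti-Zld regions, and the 31 peak lists of the series hold 179969 regions. Because the 4 wild-type lists chose the members, their values in those lists are given as description only. Whether other lists call them, and where they lie relative to genes, was not used in the choice.

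S2 is a Drosophila line with properties of embryonic blood cells, and the study compared wild-type S2 cells with lines carrying a copper-inducible transcription factor. Wild-type cells carried no factor construct and were given 1000 µM copper sulfate for anti-Zld, 100 µM for anti-Grh and 40 µM for both anti-Twi and anti-HA, and were harvested 48 hours later. The lines expressed Zelda (Zld), Grainy head (Grh), Twist (Twi), Twist with an HA tag (HA-Twi), or truncated forms named Zld-DBD and Grh-DBD, read here as DNA-binding domains. They gave 27 lists: 7 each for Zld, for Grh and for Twi and HA-Twi together, and 3 for each DNA-binding domain. The full-length lines were mapped at a single dose, in a dose series that starts at 0 µM copper, and with DMSO or with an addition that the labels call "taz"; HA-Twi has no single-dose list apart from the series. The promoter of the constructs, and whether a line is 1 clone, are not given in the sources used here. Each list comes from 2 libraries pooled, and no read depth is given, so libraries could not be compared with each other and groups were not tested. Intervals are exact Clopper-Pearson 95% intervals and cover counting error only, and neighbouring regions are not independent.

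Zld is a zinc-finger factor that opens chromatin at the first genes of the embryo, Grh a regulator of epithelial genes, and Twi directs mesoderm formation through a basic helix-loop-helix domain; the HA antibody recognises an epitope tag that wild-type cells lack. A ChIP experiment in cells without the target protein measures what an antibody and the chromatin give on their own. Regions recovered with many unrelated antibodies are known from several organisms, often at open chromatin near highly expressed genes, and are therefore commonly set aside when peaks of a single factor are interpreted.

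The 4 lists contributed unequally to the selection. Of the 5945 anti-Zld regions, 2277 were called with anti-Zld alone, 1728 with 1 further antibody and 1321 with 2 further antibodies. Among the 1321 regions called with 3 antibodies, the missing list was anti-Grh in 819, anti-HA in 373 and anti-Twi in 129. Seen from the other lists, a member was overlapped by 33.2% of the 1946 regions in the anti-Grh list, 23.2% of the 3260 in the anti-Twi list and 32.3% of the 2264 in the anti-HA list. The members closest to missing the rule were those named for atos (smallest overlap 208 bp), lute (210 bp) and DCTN5-p25 (210 bp). The closest regions that missed it lay near Tudor-SN, 250 bp from an anti-Twi region, and near SoYb and CG42806, 286 and 349 bp from an anti-Grh region.

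Members were wide and carried several summits. Their median width was 1258 bp (quartiles 875 and 1860, range 401 to 6344), where anti-Zld regions with 1, 2 and 3 antibodies had medians of 568, 727 and 922 bp. More than 1 summit was recorded in 57.8% of members, against 23.1%, 31.5% and 41.9%. The widest member spanned 6344 bp of 2L (5977176 to 5983519) over chic, the gene of the actin-binding protein profilin, and eIF4A, and held 7 summits. It was followed by 4861 bp near Hacd1, a fatty-acid elongation enzyme gene, and 4795 bp within kis, which encodes a chromatin remodeller. A wide region has more chances to overlap another list, so width is tied to the rule.

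The summits of the 4 antibodies nevertheless fell close together. The median distance from the highest anti-Zld summit to the nearest summit of the other list was 35 bp for anti-Grh, 29 bp for anti-Twi and 34 bp for anti-HA. The summits lay within 150 bp in 84.2%, 92.7% and 89.8% of members respectively. Regions called with 3 antibodies had similar medians (29, 28 and 37 bp).

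The authors' fold, the enrichment of the immunoprecipitation over local background at a summit, ranked members high in the anti-Zld list and near the middle of the others. Members stood at a median percentile of 79.2 for anti-Zld and 48.3 for anti-Grh, and of 59.3 for both anti-Twi and anti-HA. In the anti-Zld list, regions with 1, 2 and 3 antibodies stood at medians of 29, 49.6 and 67.9. Folds are comparable only within a list. Of the 20 strongest regions in each list, members accounted for 12 (anti-Zld), 4 (anti-Grh), 3 (anti-Twi) and 6 (anti-HA). As a description over the 619 members, which share libraries, Spearman's rho between percentiles was taken for each pair of lists. It was 0.37 for anti-Twi and anti-HA, 0.36 for anti-Zld and anti-Twi, and 0.30 for anti-Zld and anti-HA. For anti-Grh it was 0.25 with anti-Twi, 0.12 with anti-HA and 0.01 with anti-Zld.

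Several of the members of highest anti-Zld fold were nearest to genes of developmental transcription factors. The first, on 3R at 16763545 to 16764639, lay 12853 bp from the nearest gene end, that of CG31275, and had an anti-Zld fold of 45.8, an anti-Grh fold of 8.92, an anti-Twi fold of 6.13 and an anti-HA fold of 2.66. The next, 7778 bp from Prat2, a gene of purine synthesis, had folds of 43.2, 3.64, 4.17 and 5.36 in the same order. A region 89 bp from RNASEK, the ribonuclease kappa gene, followed with an anti-Zld fold of 37.5. Homeobox genes were nearest to some of them: Vsx1 of the visual system (185 bp, fold 34.1), the Hox gene Antp (1738 bp, fold 35.3) and lbe of the ladybird pair (24 bp, fold 33.5). The T-box gene H15 lay 553 bp from a member of fold 37.3, and chinmo, a BTB zinc-finger gene of neuronal timing, 6721 bp from one of fold 31.3. A member of fold 33.8 lay inside MSAmiP.

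In the factor-line lists, which the rule did not use, members were usually called, but hardly more often than anti-Zld regions with 3 antibodies. The median share of members called over the 27 lists was 73.2% (range 1.94% to 98.1%), and over all anti-Zld regions it was 62.4%. The share of members exceeded that of all anti-Zld regions in 26 of the 27 lists. It exceeded that of the regions with 3 antibodies in 20 lists and was lower in 7; the 2 intervals were apart in 4 of the former and 2 of the latter. Width moves with these counts: when the anti-Zld summit itself had to lie inside the factor-line region, a rule chosen once the values were known, members exceeded regions with 3 antibodies in 14 lists and all anti-Zld regions in 21.

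**Figure D1:**
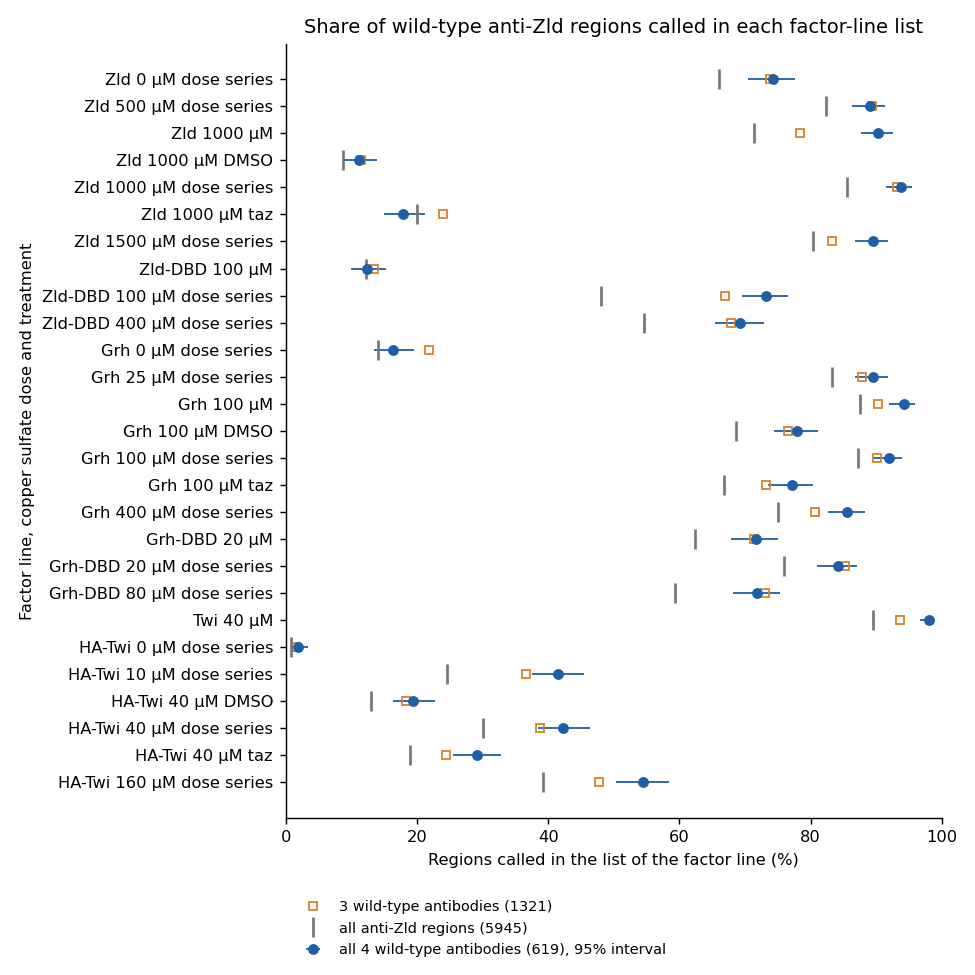
Share (%) of wild-type anti-Zld regions that overlap a region in each of the 27 factor-line lists (vertical axis, by line and copper dose). Blue points are the 619 members with 95% intervals, open squares the 1321 regions with 3 antibodies, and grey ticks all 5945 anti-Zld regions. Members lie right of the grey tick everywhere except Zld with taz, and the shares run from 1.94% to 98.1%.

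In the Zld line 74.2% (70.5 to 77.6) of members were called without copper, beside 66% of all anti-Zld regions. With copper in the dose series the shares were 89.0% at 500 µM, 93.7% at 1000 µM and 89.5% at 1500 µM, beside 82.4%, 85.6% and 80.3%. In the single-dose experiment at 1000 µM the share was 90.3% (87.7 to 92.5), beside 71.4%, and 78.4% (76.1 to 80.6) of the regions with 3 antibodies. With DMSO at the same dose only 11.1% (8.78 to 13.9) were called, beside 8.71%, and with taz 17.9% (15 to 21.2), beside 20%. The 3 experiments of the Zld line at 1000 µM without taz thus ranged from 11.1% to 93.7%, a wider range than that between doses of the series, 74.2% to 93.7%. These 3 lists also differ in size, with 2150 regions for DMSO, 6451 for the single dose and 9449 in the series. Their shares of all anti-Zld regions, 8.71%, 71.4% and 85.6%, had the same order. The part of list size or of DMSO was not tested.

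The Zld DNA-binding domain also differed between 2 experiments at the same dose. At 100 µM, 73.2% (69.5 to 76.6) of members were called in the dose series, beside 48.1%, but 12.4% (9.94 to 15.3) in the single-dose experiment, beside 12.2%. The first of these lists held 4391 regions and the second 1302. At 400 µM the share was 69.3%, beside 54.6%.

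In the Grh line 16.3% (13.5 to 19.5) of members were called without copper, beside 14.1% of all anti-Zld regions and 21.9% (19.7 to 24.2) of those with 3 antibodies. The dose series gave 89.5% at 25 µM, 91.9% at 100 µM and 85.6% at 400 µM, beside 83.3%, 87.2% and 75.1%. The single-dose list at 100 µM held 94.2% (92 to 95.9), beside 87.5%. With DMSO and taz the shares were 77.9% and 77.1%, beside 68.6% and 66.8%. For the Grh DNA-binding domain they were 84.2% at 20 µM and 71.9% at 80 µM in the dose series, beside 76% and 59.4%, and 71.6% at 20 µM in the single-dose list, beside 62.4%.

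The untagged Twi line, immunoprecipitated with anti-Twi, called 98.1% (96.6 to 99) of members at 40 µM, beside 89.5%. The HA-Twi line, immunoprecipitated with anti-HA, called 1.94% (1.01 to 3.36) without copper, beside 0.824% in a list of 77 regions. The dose series gave 41.5% at 10 µM, 42.3% at 40 µM and 54.4% at 160 µM, beside 24.6%, 30% and 39.2%. At 40 µM with DMSO the share was 19.4%, beside 13%, and with taz 29.1%, beside 19%. Members were therefore called far less in HA-Twi than in Twi lists, although every member had been called with anti-HA in wild-type cells. The sizes of the lists differ as well, since the Twi list held 12106 regions and the HA-Twi list of the series at the same dose 3862.

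Seen from the factor-line lists, members were a small part of each, from 3.6% of the regions in Zld with taz to 15.6% in HA-Twi without copper. Within those lists the called members tended to have low folds. Their median fold percentile was below that of the other called anti-Zld regions in 26 of the 27 lists, with a median of 33.4 over lists and a range of 7.77 to 68.1. The exception was the single-dose Grh list, where members stood at a median percentile of 68.1 and the other anti-Zld regions at 60.6. In the single-dose Zld list the medians were 45.1 and 48.4, in the Twi list 42.6 and 49.0, and in the Zld dose series at 1000 µM 27.9 and 45.0. The median distance from the wild-type anti-Zld summit to the nearest factor-line summit was 35 bp over the lists, and 17 bp in the single-dose Zld list.

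Most members were called in the single-dose lists of Zld, Grh and Twi alike. All 3 lists held 531 members, 85.8% (82.8 to 88.4), against 48.4%, 65.5% and 70.2% of anti-Zld regions with 1, 2 and 3 antibodies. They held 72 members in 2 of these lists and 12 in 1. The 4 members in none lay near spir, CG32301, CG9372 and CG15025, each with a gene end within 232 bp. Across whole families, 27 members (4.36%) were called in all 7 Zld lists, beside 3.92% of all anti-Zld regions and 6.28% of those with 3 antibodies. All 7 Grh lists called 100 (16.2%), beside 13.6% and 21.5%, and all 7 Twi and HA-Twi lists 10 (1.62%), beside 0.673% and 1.36%. For the DNA-binding domains, all 3 Grh-DBD lists called 397 members (64.1%), beside 50.3% and 62.4%, and all 3 Zld-DBD lists 75 (12.1%), beside 9.52% and 12.2%.

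Without copper, 459 members were called in the Zld line (74.2%), 101 in the Grh line (16.3%) and 12 in the HA-Twi line (1.94%). All anti-Zld regions gave 66%, 14.1% and 0.824% in the same order, and those with 3 antibodies 73.8%, 21.9% and 1.59%. Only the MtnA member was in all 3 of these lists, and 132 of the 619 were in none. These 2 joint counts are not given here for other anti-Zld regions, so they are description only. The 12 members of the uninduced HA-Twi list included those near srp and pnr, GATA factor genes of blood and dorsal development (wild-type anti-HA folds 3.02 and 3.31), lbe (2.35), cbt (2.17), lace (2.53), L (2.73) and MtnA (3.88).

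Each member was called in a median of 17 of the 27 factor-line lists (quartiles 14 and 20, range 2 to 25), and none in 26 or 27. Anti-Zld regions with 1, 2 and 3 antibodies had medians of 13, 16 and 17. Where a member lay relative to genes separated those called often from those called rarely. Of the 127 members in 21 to 25 lists, 20.5% (13.8 to 28.5) had their highest summit within 500 bp of an end of a protein-coding gene. That share was 61.6% (55.7 to 67.3) of the 284 members in 16 to 20 lists, 73.9% (66.4 to 80.5) of the 161 in 10 to 15, and 74.5% (59.7 to 86.1) of the 47 in 2 to 9. The other anti-Zld regions gave 18.3%, 57.8%, 68.3% and 53%, and so followed the same order in the first 3 classes.

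Width ran the same way, with medians of 2074, 1310, 927 and 727 bp in the same order. Over the 619 members Spearman's rho between width and number of lists was 0.58, a description in which overlap by 1 bp favours wide regions.

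**Figure D2:**
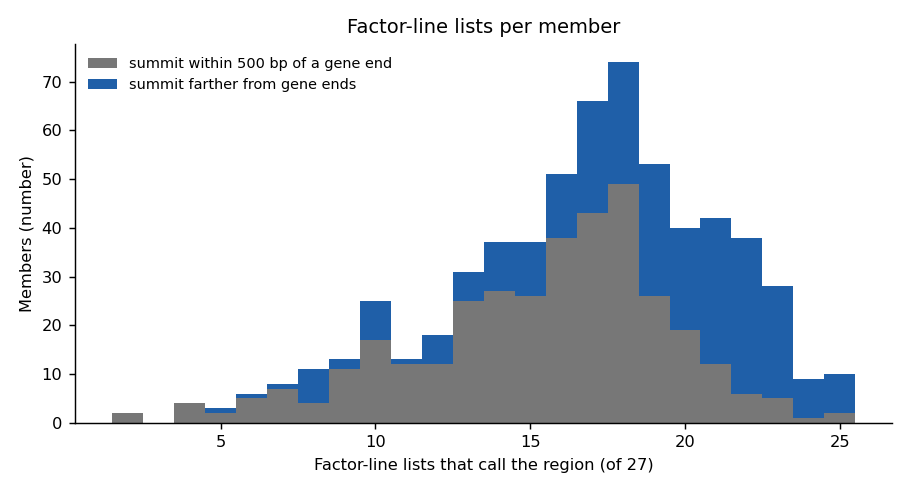
Number of members (vertical axis) by the number of the 27 factor-line lists that call them (horizontal axis), split by whether the highest anti-Zld summit lies within 500 bp of a gene end (grey) or farther away (blue). Members in 21 or more lists are mostly blue.

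Of the 10 members in 25 lists, 8 had their highest summit farther than 500 bp from a gene end; the other 2 lay near E(spl)mbeta-HLH (67 bp) and E(spl)m3-HLH (35 bp), genes of the Notch-responsive Enhancer of split complex. Those of highest anti-Zld fold among the 10 were inside zfh2, a zinc-finger homeobox gene (chromosome 4, 506682 to 508980, 6833 bp from a gene end), and 33353 bp from CG43245. The next were inside sbb, a transcriptional co-regulator gene, inside ITP, the ion transport peptide gene, and inside 14-3-3epsilon. All 5 were missing from the uninduced HA-Twi list. The zfh2 member had wild-type folds of 21.7, 2.82, 4.14 and 2.63 (anti-Zld, anti-Grh, anti-Twi, anti-HA) and was otherwise missing only from the single-dose list of the Zld DNA-binding domain.

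The 6 members in 4 or fewer lists all had a gene end within 232 bp. The member 30 bp from an end of spir, an actin nucleator gene (2L, 20310763 to 20311528), and that 47 bp from CG9372 (3L, 19605970 to 19606676) were called in 2 lists each, both times of the Zld dose series. Their wild-type anti-Grh folds were 94.1 and 77.6, yet neither was called in any of the 10 lists of Grh or its DNA-binding domain. The member near pxb, called in 4 lists and in no Grh list, had an anti-Grh fold of 46.2. RNASEK, CG3358 and CG32301, also in 4 lists, had anti-Grh folds of 5.35, 8.39 and 4.65.

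A high fold in the wild-type anti-Grh list went with fewer factor-line lists. The 53 members at or above the 90th percentile of that list were called in a median of 10 factor-line lists, and in 2 of the 7 Grh lists. For the remaining 566 members the medians were 18 lists and 6 of the 7 Grh lists. The medians did not fall in the other full-length lines. They were 5 of the 7 Zld lists in both groups. Of the 7 Twi and HA-Twi lists they were 3 for the 53 members and 2 for the 566. The 53 were also narrower (median 1018 against 1291 bp) and lay more often near a gene end (62.3% against 56.9%). The part of width and position was not tested, and other anti-Zld regions of that anti-Grh rank are not given here. Spearman's rho between the anti-Grh percentile and the number of lists was -0.42, against 0.20 for anti-Zld, 0.04 for anti-Twi and -0.09 for anti-HA. The member with the largest anti-Grh fold, inside InR, the insulin receptor gene, had a fold of 349 and was called in 5 factor-line lists, none of Grh. That fold is of a wider anti-Grh region that the member overlaps (3R, 21579445 to 21583459). The wider region was itself called in 12 factor-line lists. The wild-type anti-Grh list is unusual in its extremes, with a median fold of 3.53 and a maximum of 386, where the anti-Zld, anti-Twi and anti-HA lists reach 45.8, 6.51 and 8.05. Of its 10 strongest regions only that at InR overlapped a member; the other 9 were not called with anti-HA. It is not known whether its label is right, and every wild-type anti-Grh fold given here, and the choice of members, rests on it.

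**Figure D3:**
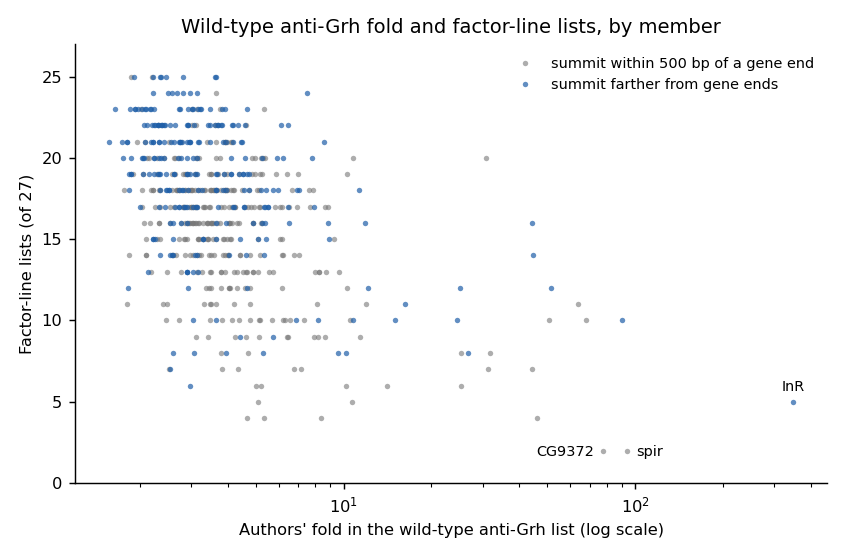
Authors' fold in the wild-type anti-Grh list (horizontal, log scale) and number of factor-line lists (vertical) for each of the 619 members; grey points have the anti-Zld summit within 500 bp of a gene end, blue points do not. Members of high anti-Grh fold, such as InR (349, 5 lists), spir (94.1, 2 lists) and CG9372 (77.6, 2 lists), sit low.

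The strongest wild-type anti-Zld signals were called less, not more, in the Zld dose series. This split into 4 classes of 154 or 155 members by anti-Zld fold was chosen after the values were seen. From the lowest class (folds 2.15 to 4.88) to the highest (9.81 to 45.8), the share called in Zld without copper was 85.7%, 83.9%, 73.5% and 53.5%. At 1500 µM it was 96.1%, 97.4%, 94.2% and 70.3%, and the intervals of the lowest class (91.7 to 98.6) and the highest (62.5 to 77.4) were apart. The lists at 500 and 1000 µM gave 74.2% and 82.6% in the highest class, against 95.5% and 97.4% in the lowest. In the single-dose Zld list the shares were 92.2% and 87.1%, with intervals that overlap. The other anti-Zld regions of the same fold percentiles fell in the dose series as well. From the lowest to the highest class they gave 70.6%, 62%, 54.8% and 41.7% without copper. At 1500 µM they gave 83.4%, 79.1%, 73.9% and 56%. Of the 10 members of highest fold, 8 were called in none of the 4 Zld dose-series lists, a count not given here for other anti-Zld regions. CG31275 was called at 1000 µM and chinmo at 0, 1000 and 1500 µM.

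The HA-Twi lists ran the other way. At 10, 40 and 160 µM in the series, 20.1%, 20.1% and 30.5% of the lowest class were called, and 62.6%, 69.7% and 78.7% of the highest. For the Zld DNA-binding domain at 100 µM in its series the share was 56.5% in the lowest and 90.3% in the highest class, and at 400 µM 79.9% and 58.1%. Over the 27 lists the highest class was above the lowest in 17, with intervals apart in 11, and below it in 10, with intervals apart in 6. The side was the same in 22 lists for the other anti-Zld regions of the same fold percentiles. Position and width move with the classes: 76% of the lowest class and 38.1% of the highest lay within 500 bp of a gene end, with median widths of 876 and 1356 bp. Their part in these shares was not tested.

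**Figure D4:**
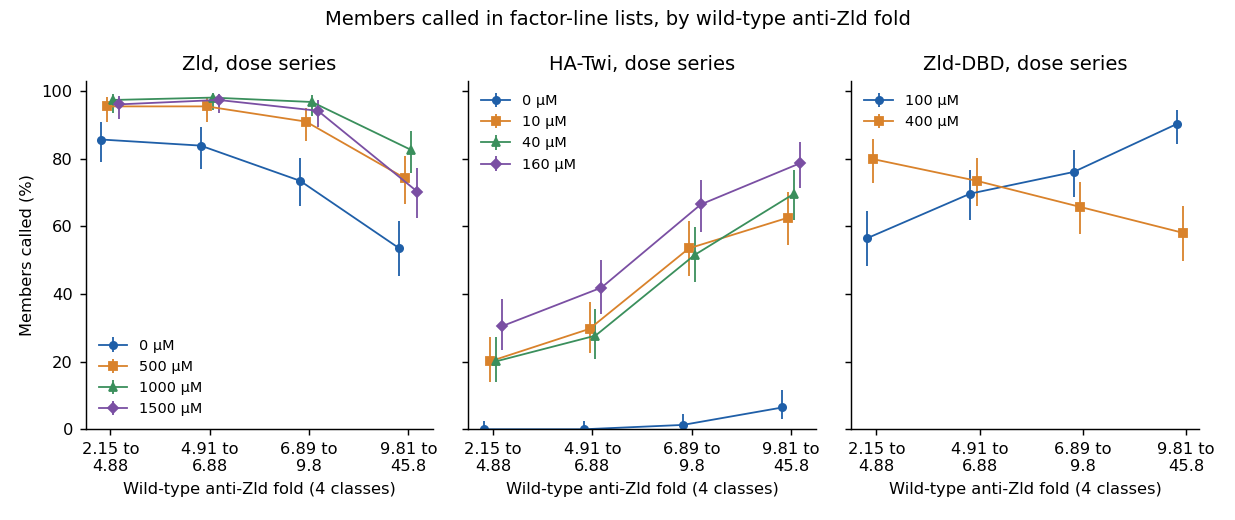
Share of members called (%, with 95% intervals) in the dose series of Zld, HA-Twi and the Zld DNA-binding domain, for 4 classes of members by the authors' wild-type anti-Zld fold (horizontal axis gives each class's range). Shares fall across classes for Zld, rise for HA-Twi with copper, and cross for the 2 doses of the Zld DNA-binding domain.

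Members lay near gene ends about as often as other anti-Zld regions, and less often on the X chromosome. The highest summit lay within 500 bp of a gene end in 57.4% (53.3 to 61.3) of members, elsewhere inside a gene in 34.2% (30.5 to 38.1) and outside genes in 8.4% (6.34 to 10.9). Regions with 1, 2 and 3 antibodies gave 53.9%, 61.1% and 57.5% near gene ends. The X chromosome held 45 members, 7.27% (5.35 to 9.61), against 20.5%, 15.6% and 11.8% of regions with 1, 2 and 3 antibodies. The whole anti-Grh, anti-Twi and anti-HA lists, which the rule required, had 9.2%, 12.3% and 10.8% of their regions on X, and the anti-Zld list 15.8%. Arm 3R held 181 members (29.2%), beside 24.7% of the anti-Zld list and 29.4%, 25.7% and 25.2% of the anti-Grh, anti-Twi and anti-HA lists. Chromosome 4 held 9 (1.45%), beside 0.74%, 0.514%, 1.44% and 1.33% in the same order.

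Calling differed with position, and width and fold differ with position too. Members away from gene ends were called more often than those near them in 22 of the 27 lists, and the intervals were apart in 11. Among the other anti-Zld regions this held in 15 lists. In the HA-Twi list at 160 µM, 80.3% (75 to 84.9) of the members away from gene ends were called and 35.2% (30.2 to 40.4) of those near them, and 60.6% and 20% of the other anti-Zld regions. At 40 µM in the series the shares were 65.9% and 24.8% of members, and 51.2% and 11.5% of the others. In the single-dose Zld, Grh and Twi lists the shares of members away and near were 90.5% and 90.1%, 96.2% and 92.7%, and 98.9% and 97.5%. The other anti-Zld regions went the other way in these 3 lists, with 59.8% and 76.3%, 82.3% and 90.1%, and 83.7% and 92% away and near.

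Genes with a member numbered 888 of the 13922 protein-coding genes, 6.38%, when the gene with 500 bp to both sides was searched; 44.5% had an anti-Zld region, and members were at 14.3% of those. Against this background, 18 lists of genes with known roles were counted. The lists held 555 genes in the annotation, 92 of them (16.6%) with a member. Long genes offer more bases to hold a region, and neighbouring genes can share a member.

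Genes of the cell's basic machinery were among those that most often held members. Members lay at 9 of 23 actin, tubulin and cytoskeleton genes (39.1%, 19.7 to 61.5), among them chic, the tropomyosin gene Tm1, the actin genes Act5C and Act42A, and alphaTub84B. They lay at 12 of 51 translation factor genes (23.5%, 12.8 to 37.5), such as eEF5, eEF1alpha1, eIF4A and eIF4EHP. Of the cytoplasmic ribosomal protein genes 21 of 92 had one (22.8%, 14.7 to 32.8), although 92.4% had an anti-Zld region. Mitochondrial ribosomal protein genes had a member in 5 of 75 cases (6.67%), close to all genes. Of the genes with an anti-Zld region, 42.9% of cytoskeleton and 32.4% of translation factor genes had a member. For cytoplasmic and mitochondrial ribosomal protein genes these shares were 24.7% and 11.1%, and for all genes 14.3%.

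The ribosomal members differed among themselves in the factor-line lists. That at RpS3A on chromosome 4 had folds of 19.7, 3.97, 3.87 and 3.33 (anti-Zld, anti-Grh, anti-Twi, anti-HA) and was called in 18 lists. RpL38, with a similar anti-Zld fold of 19.1, was called in 12. RpL23A, with an anti-Grh fold of 10.7, was called in 5, and RpS19b in 20.

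Chromatin and cell cycle genes also had intervals above the share of all genes, and both Polycomb lists had intervals that include it. An anti-Zld region, which the rule requires, was at 100% of chromatin and 82.8% of cell cycle genes, beside 44.5% of all genes. Of the genes with such a region, 34.8% and 29.2% had a member, beside 14.3% for all genes. No intervals were taken for these shares. Histone variant and chromatin protein genes had a member in 8 of 23 cases (34.8%, 16.4 to 57.3): mor and brm of the Brahma remodeller, lolal, pzg, His2Av, Cp190 of insulators, and HmgD with HmgZ, which share a member. Polycomb group genes had one in 4 of 19 (21.1%, 6.05 to 45.6): ph-p, ph-d, Pc and Scm. The genes that Polycomb is known to repress had one in 4 of 30 (13.3%, 3.76 to 30.7; 13.8% of those with an anti-Zld region, beside 14.3% for all genes): en, Dfd, ap and pnr, with anti-Zld folds of 31.3, 23.8, 17.9 and 15.9. Cell cycle genes had one in 7 of 29 (24.1%, 10.3 to 43.5): E2f1 and its partner Dp, CycE, CycB, CycB3, dup and Mcm5.

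The counts for hormone and stress regulators, like those of most of the lists, depended on the anti-Grh list. Ecdysone response genes, which act downstream of the moulting hormone, had a member in 5 of 15 cases (33.3%, 11.8 to 61.6): ftz-f1, Eip74EF, vri, usp and Eip75B. Stress and immediate response regulators had one in 3 of 20: kay, which encodes Fos, Myc and Diedel. Chaperone genes had one in 3 of 28: Hsc70-4, Hsp83 and Droj2. Of the genes with an anti-Zld region, 33.3% of ecdysone, 15% of stress and 13.6% of chaperone genes had a member, beside 14.3% for all genes. When the anti-Grh list was not required, 12.5% of all genes had a member. These counts then were 12 of 15 ecdysone genes (80%), 13 of 20 stress regulators (65%) and 10 of 28 chaperone genes (35.7%). Most other lists rose as well, such as cytoplasmic ribosomal protein genes to 41 of 92 (44.6%) and cytoskeleton genes to 14 of 23 (60.9%). Mitochondrial ribosomal protein, neural and germline genes kept their counts. With the anti-Grh list required, only MtnA, a metallothionein gene, of the 13 copper and metal response genes had a member (7.69%). It spanned 3R 9781747 to 9785000, with folds of 11.3, 3.02, 3.49 and 3.88, and was called in 23 of the 27 factor-line lists, all 3 uninduced ones included.

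**Figure D5:**
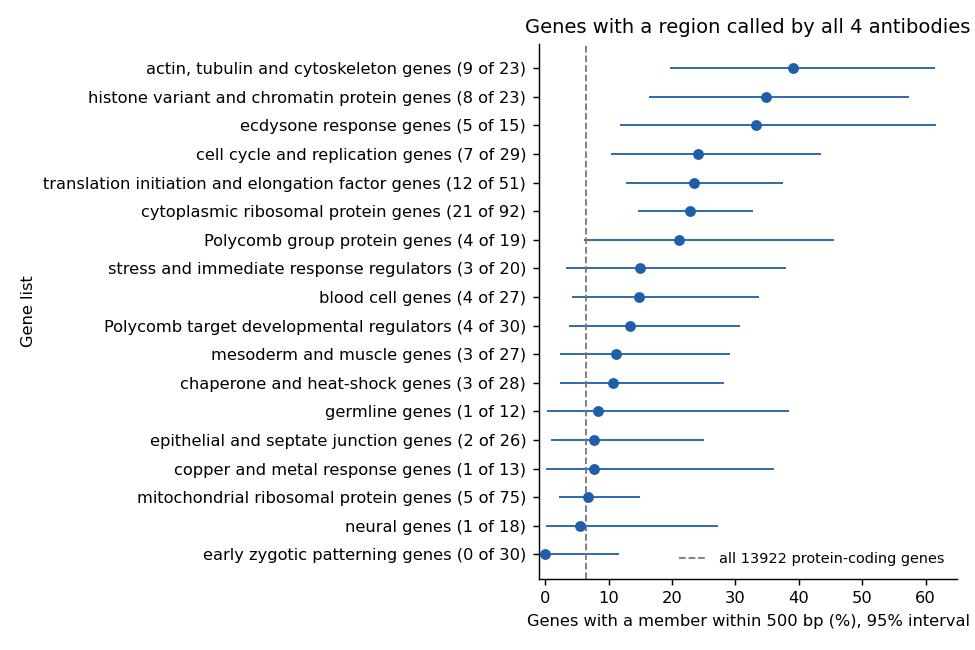
Share of the genes in each of 18 lists with a member within 500 bp (points, with 95% intervals; numbers of genes in brackets). The dashed line is the share over all 13922 protein-coding genes, 6.38%. The intervals of cytoskeleton, chromatin, ecdysone, cell cycle, translation factor and cytoplasmic ribosomal protein genes lie above the line.

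Genes that mark other tissues, and the targets these factors are known for, had a member in shares whose intervals all included the 6.38% of all genes. None of 30 early zygotic patterning genes, known targets of Zld, had a member, which allows a share of up to 10% by a floor of 3 counts and 11.6% by the exact interval; 14 of them had an anti-Zld region, and 4 (13.3%) had a member when the anti-Grh list was not required. Epithelial and septate junction genes, the field of Grh, had 2 of 26 (scrib and shg; 7.69%), and mesoderm and muscle genes, the field of Twi, 3 of 27 (Mef2, mbc and T48; 11.1%). Neural genes had 1 of 18 (Syx1A; 5.56%) and germline genes 1 of 12 (vas; 8.33%). Blood cell genes, the markers of the host line, had 4 of 27 (14.8%, 4.19 to 33.7), namely ush, pnr, LanB2 and gcm2, and 21 had an anti-Zld region. For blood cell genes, windows of 0 and 2000 bp gave 3 and 7 of 27 (11.1% and 25.9%), beside 5.72% and 8.1% of all genes. Without the anti-Grh list they had 12 of 27 (44.4%), beside 12.5% of all genes. Epithelial genes then had 3 of 26 (11.5%) and mesoderm genes 5 of 27 (18.5%), and the neural and germline counts did not change. Peak lists measure chromatin and not RNA, so the identity of the cells was not checked by them. At the factors' own genes, zld, grh and twi, no member was found, although grh and twi each had a region in all 4 wild-type lists; those regions did not all overlap 1 anti-Zld region.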

How the data were processed

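Peak lists of 62 of the 76 libraries were analysed, in 31 lists of 2 libraries each; the other 14 libraries, inputs and IgG samples, were not analysed here. Per the submitters' processing notes, Bowtie2 2.4.4, MACS2 2.2, deepTools 3.5.1 and the build dm6 were used; settings are not recorded there. The deposited lists give, for each summit, a fold enrichment (a ratio over local background) and p- and q-values as −log10, all as the authors' peak caller computed them; a filter between calling and deposit, and the read depth, are not given in the sources used here.

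Rows with equal chromosome, start and end were joined, which turned 258174 summits into 179969 regions; 2 summits beyond a region's end were moved to its last base. Overlap was 1 bp or more, and "called" means present in a deposited list. A percentile is the rank of the authors' fold within its list. The overlap code was tested on simulated data. Gene positions came from the RefSeq gene table of the dm6 assembly. It has no strand, and no genome or promoter sequence was used, so distance to either gene end replaced distance to the transcription start, and planned motif counts and sequences are not given. A member is named for the gene whose end is nearest its highest anti-Zld summit.

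Members named are the 10 of highest anti-Zld fold (1 is not reported here), 5 each with most and fewest factor-line lists, the 3 widest, the 3 nearest to either side of the rule, the 4 of highest anti-Zld fold per gene list, and zld, grh, twi and MtnA. The InR member, further genes of a list and the 4 members in no single-dose list were named after their values were seen. Members and lists were chosen with earlier results of these data known. Of 357 genes listed by name, 340 matched the table. No test was made, since lists pool their libraries and regions are not replicates. Analyses used Python 3.11.15 with numpy 2.4.6, pandas 2.3.3 and scipy 1.17.1.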

Additional observations from a re-analysis of the deposited data

How the results depend on the processing

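The number of members was 237 when the other lists had to cover 50% of the anti-Zld region and 1438 without the anti-Grh list; with a −log10 q of at least 10 it was 440, and joined or differently based regions gave 611 to 640. The median share called over factor-line lists, 73.2%, became 51.5% with 50% of the member covered, 62% with a −log10 q of at least 10, 92.2% over the single-dose Zld, Grh and Twi lists with HA-Twi at 40 µM, and 62.4% with the anti-Zld summit inside the factor-line region, which was chosen once the values were known. The median number of lists was 13, 16 and 15 under the first, second and last of these. The share near a gene end, 57.4%, became 50.9% within 250 bp, 66.6% within 1000 bp, 69.8% for any summit, 73.5% for any base, 52.9% without the anti-Grh list and 61.6% for members with 50% of the region covered. The median width of 1258 bp compares with 509 bp between outermost summits, and the median rank of 79.2 with 81.6 by −log10 q. Genes of the lists with a member numbered 92, 172 without the anti-Grh list, and 90 and 105 with windows of 0 and 2000 bp. No paired analysis was possible because each list pools its 2 libraries, and no replicate could be left out for the same reason; motif alternatives were not run. Depth is unknown, so a region not called is not shown to be unbound.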

Other observations

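Members also lay at genes of small non-coding RNAs. They are wider than the other anti-Zld regions, and a wide region has more chances to overlap a gene. The part of width in these shares was not tested. Of the 619 members 11 (1.78%) overlapped a snoRNA gene, against 0.483%, 0.463% and 1.36% of anti-Zld regions with 1, 2 and 3 antibodies, and among them were members at the ribosomal protein genes RpS16, RpL28, RpL14, RpL13A and RpS29. A snoRNA inside a host gene cannot be told apart from the host here. Members overlapped miRNA genes in 8 cases (1.29%, against 0.351%, 0.463% and 1.14% in the same order), among them the bantam gene mir-ban, mir-279 and the mir-275 and mir-305 pair, and snRNA genes in 4 cases (0.646%, against 0.132%, 0.231% and 0.379%), snRNA:U11, snRNA:U12, snRNA:U2:34ABb and snRNA:LU. A tRNA gene was overlapped by 1 member (0.162%, against 0.659%, 0.405% and 0.53%). No member overlapped an rRNA gene, which allows a share of up to 0.485%. Anti-Zld regions with 1, 2 and 3 antibodies gave 0% for rRNA genes as well.

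Members formed 12 groups of 3 or more with gaps of at most 10000 bp. The largest had 4 members each: near cbt and CG4297 on 2L, near klar and Hipk on 3L, at tara on 3R, and at Act5C and Shmt on X. In all, 136 members (22%) had another member within 10000 bp; of the far more numerous anti-Zld regions, 4775 (80.3%) had another anti-Zld region that near. Members of 1 group differed in how often they were called, from 8 to 24 factor-line lists in the cbt group and from 6 to 21 in the Act5C group.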
